A study of Caenorhabditis elegans with 18 samples.

Results

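The mirtrons mir-62, mir-1018 and mir-1020 were followed in small RNA libraries of Caenorhabditis elegans, a nematode, as 3 of the 175 miRNAs counted. They were picked by name, as miRNAs made by splicing, with earlier results of these data known. Small RNA was sequenced from whole young adult worms, raised at 25 °C on NGM plates seeded with OP50 bacteria, of 6 genotypes with 3 libraries each. The genotypes were the double mutant dpf-3(xe68);alg-1(gk214), the single mutant alg-1(gk214), the double mutant dpf-3(xe68);alg-2(ok304), the single mutants alg-2(ok304) and dpf-3(xe68), and the wild type strain N2 (Bristol). The alleles are left out of the names below. The design asks how miRNA levels change when an Argonaute is mutated and whether a dpf-3 mutation alters that change.

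Most animal miRNAs are cut from a long primary transcript by the nuclear enzyme Drosha, then cut again by Dicer and loaded into an Argonaute protein, which keeps the miRNA and represses its targets. A mirtron skips the first cut. Its hairpin is a whole short intron, released by the spliceosome and debranched before Dicer and Argonaute take over. In C. elegans the Argonautes ALG-1 and ALG-2 carry most miRNAs, and dpf-3 encodes a dipeptidyl peptidase, an enzyme that trims proteins from their amino-terminal end.

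In the Ensembl annotation of assembly WBcel235 the hairpin of each of the mirtrons fills an intron from its first base to its last, on the strand of the host gene. mir-62, 58 bases long, is intron 3 of ugt-50 on chromosome X, a gene named for UDP-glucuronosyltransferases. mir-1018, 56 bases long, is intron 27 of Y59E1B.1, an annotated non-coding RNA gene on chromosome X. mir-1020, 70 bases long, is intron 6 of the protein-coding gene T16G12.1 on chromosome III. The annotated mature miRNA of mir-62 and of mir-1018 is the 3p arm of 22 bases, which ends at the last base of the intron. mir-1020 has both arms annotated, a 5p arm of 22 bases that begins at the first base of the intron and a 3p arm of 21 bases that ends at its last base. The counts do not tell these arms apart.

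Of the 175 names, 162 matched the annotation, 39 of these lay inside an intron on the same strand, and 5 filled one exactly. Besides the 3 mirtrons these were mir-1019, the remaining well known mirtron of this species, in dyf-5, and mir-2220, which is intron 11 of Y59E1B.1, the host of mir-1018. mir-1019 had 3 counts over all 18 libraries and was not tested. Host transcripts were not measured, so changes in the making of these introns and in the stability of the miRNAs cannot be told apart.

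Library totals ranged from 7.78 to 22.5 M (mega) counts. The mir-35 family, a marker of oocytes and embryos, took 4.75% to 9.05% of the counts in dpf-3;alg-1, 0.331% to 0.348% in alg-1, 0.440% to 0.466% in dpf-3;alg-2, 0.398% to 0.495% in alg-2, 1.66% to 2.98% in dpf-3 and 11.7% to 13.5% in wild type. In whole worms, fewer cells of a type and less RNA per cell cannot be told apart. Among the labels only those of the 6 libraries of dpf-3;alg-2 and alg-2 give a library name, and where these are compared with the remaining genotypes the effects of genotype and of library set cannot be told apart. Nothing in the labels states whether the 3 libraries of a genotype came from separate cultures, and p-values then measure the spread between libraries, which may be technical.

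Levels are given in CPM, counts scaled to a common library total after TMM scaling, a correction for library composition. In wild type mir-62 stood at 188 ± 3.56 CPM, mir-1020 at 91.7 ± 7.58 CPM and mir-1018 at 8.65 ± 1.62 CPM (SD, n = 3). They ranked 75, 85 and 118 among the 139 miRNAs that passed the filter on low counts, as all 3 mirtrons did. mir-62 had 703 to 4748 counts in a library and mir-1020 had 113 to 2116 counts. mir-1018 had 50 to 191 counts, and its lowest count of 50 has an exact 95% Poisson interval of 37.1 to 65.9, which covers counting error only. The values of mir-62 and mir-1018 were whole numbers in all 18 libraries and those of mir-1020 in 3, and the rest were fractions, which arise in estimated counts when a read matches more than one place.

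**Figure D1:**
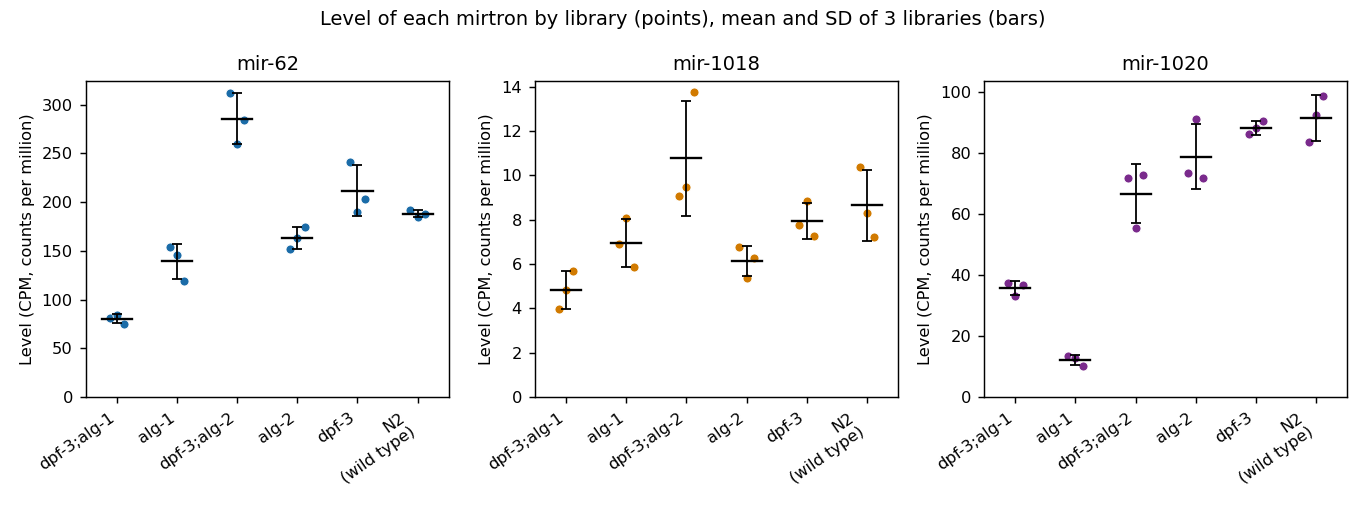
Level of mir-62, mir-1018 and mir-1020 in CPM (vertical axes, each from 0) in the 6 genotypes. Points are the 3 libraries of a genotype, the wide bar is their mean and the error bar their SD. mir-1020 is lowest in alg-1, at 12.2 CPM, while mir-62 and mir-1018 are lowest in dpf-3;alg-1, at 80.3 and 4.83 CPM.

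In alg-1 mutants mir-1020 fell the furthest of the mirtrons, mir-62 fell by less, and mir-1018 did not pass the test. mir-1020 had 13.6, 12.7 and 10.2 CPM in the alg-1 libraries, against 83.7, 92.6 and 98.7 CPM in the wild type libraries. The genotypes lie far apart, and the log2 change was -2.91 (SE 0.14), a 7.50-fold fall, with an adjusted p of 4.8e-12 (edgeR's quasi-likelihood test, Benjamini-Hochberg adjustment over the 139 miRNAs). This was the rank 17 fall among 139. mir-62 had 154, 145 and 119 CPM in alg-1, against 192, 185 and 188 CPM in wild type. It too did not overlap, and its fall was 1.35-fold, a log2 change of -0.43 (SE 0.11) with an adjusted p of 0.0019 by the same edgeR test. mir-1018 had 6.93, 8.06 and 5.89 CPM in alg-1, against 10.4, 8.33 and 7.21 CPM in wild type, and the libraries overlap. Its log2 change of -0.31 (95% interval -0.72 to 0.097) did not pass the edgeR test, with an adjusted p of 0.14.

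Of the 3 mirtrons 2 were called lower, where 41.7% of all tested miRNAs were. The marker lists moved too. The markers on these lists are themselves miRNAs. A change in tissue content and a change in the markers' own levels cannot be told apart, here and in the comparisons below. Of the embryo and oocyte list 7 of 8 members were lower, and all 5 neuron markers were higher, with summed levels of 1941 to 3026 CPM in alg-1 and 1199 to 1276 CPM in wild type. The glia and epidermis marker stood at 18997 to 23392 CPM in alg-1 and 5263 to 6088 CPM in wild type. Of the 2 intestine markers 1 was higher, with summed levels of 3405 to 3720 CPM in alg-1 and 2206 to 2653 CPM in wild type. The part of these tissues in the mirtron changes was not tested. With upper quartile factors, which move the median log2 change of all miRNAs from -0.08 to 1.07, mir-62 turned to 0.73 and mir-1018 to 0.84, while mir-1020 stayed lower at -1.75. Relative to the median of all miRNAs, the changes with those factors were -2.82 for mir-1020, -0.35 for mir-62 and -0.23 for mir-1018, against -2.82, -0.35 and -0.225 with TMM.

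Adding the dpf-3 mutation to alg-1 moved the mirtrons in opposite directions. mir-1020 had 37.4, 33.1 and 36.9 CPM in dpf-3;alg-1, against 13.6, 12.7 and 10.2 CPM in alg-1. It rose 2.93-fold, a log2 change of 1.55 (SE 0.14) with an adjusted p of 1.5e-08 by edgeR's test. mir-62 had 80.9, 84.5 and 75.4 CPM in dpf-3;alg-1, against 154, 145 and 119 CPM in alg-1. It fell 1.74-fold, a log2 change of -0.80 (SE 0.12) with an edgeR adjusted p of 5.4e-06, and the libraries do not overlap. mir-1018 had 3.99, 4.82 and 5.68 CPM in dpf-3;alg-1, against 6.93, 8.06 and 5.89 CPM in alg-1. Its log2 change of -0.54 (SE 0.21) passed edgeR's test with an adjusted p of 0.027, and the highest double mutant library lies just under the lowest alg-1 library. That call was lost without alg-1 replicate 2 or replicate 1 or 2 of the double mutant, with edgeR adjusted p-values of 0.11, 0.12 and 0.053, where all alternatives gave 4.6e-07 to 0.17.

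Of the 3 mirtrons 1 was higher and 2 were lower in this comparison, where 34.5% of all miRNAs were higher and 41.7% lower. With upper quartile factors the median log2 change of all miRNAs moved from -0.14 to -1.27, and the values were 0.44 for mir-1020, -1.91 for mir-62 and -1.65 for mir-1018, each past the edgeR test. Relative to that median they were 1.70, -0.64 and -0.38. Of the embryo and oocyte list 7 of 8 members were higher and 1 lower, with summed levels of 44061 to 93568 CPM in the double mutant and 3389 to 3782 CPM in alg-1. Of the neuron markers 2 of 5 were lower, with summed levels of 1821 to 2329 CPM in the double mutant and 1941 to 3026 CPM in alg-1. The glia and epidermis marker was lower as well, at 6263 to 7333 CPM in the double mutant and 18997 to 23392 CPM in alg-1. Both intestine markers were lower too, with summed levels of 2047 to 2463 CPM in the double mutant and 3405 to 3720 CPM in alg-1. Their sum in wild type was 2206 to 2653 CPM. The part of these tissues in the mirtron changes was not tested here either. With the mir-35 family removed before scaling, mir-1020 changed by 1.76 and mir-62 by -0.58 on the log2 scale and both passed the edgeR test, while mir-1018, at -0.33, did not.

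**Figure D2:**
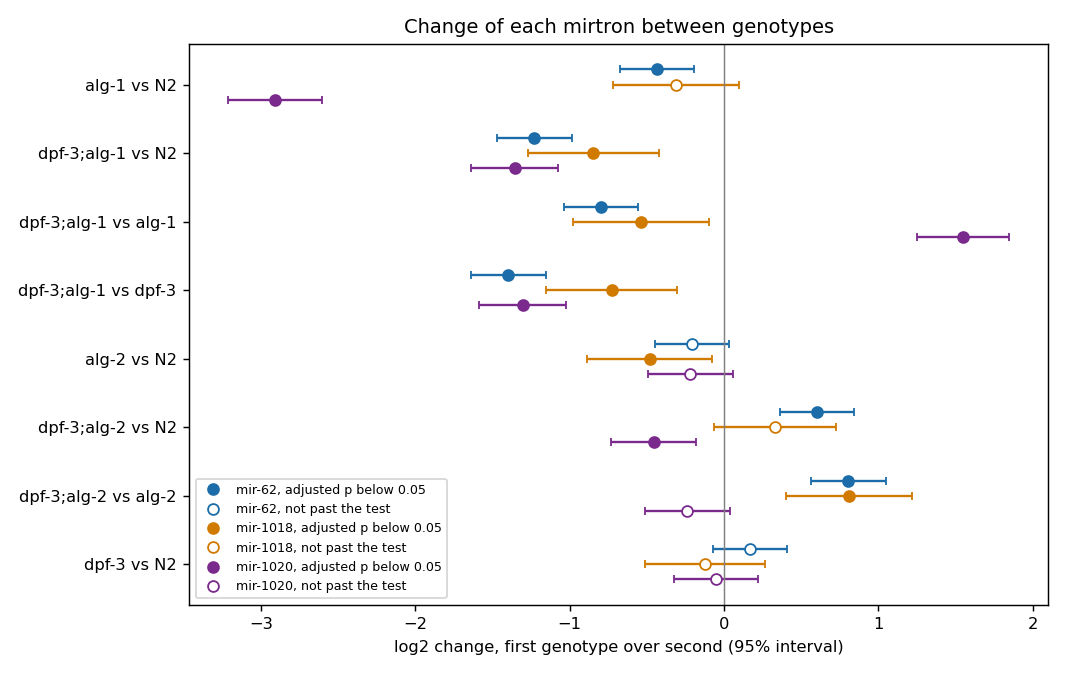
Log2 change between genotypes (horizontal axis, first genotype over second) for each mirtron in 8 comparisons, with 95% intervals from the edgeR fit. Filled circles passed an adjusted p of 0.05 and open circles did not. In dpf-3;alg-1 against alg-1 mir-1020 lies at 1.55 and mir-62 at -0.80, on opposite sides of 0.

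All 3 mirtrons were lower in dpf-3;alg-1 when set against wild type. mir-1020, at 35.8 ± 2.32 CPM in the double mutant and 91.7 ± 7.58 CPM in wild type (SD, n = 3 each), was 2.56-fold lower, a log2 change of -1.36 (SE 0.13, edgeR adjusted p 2.6e-07). mir-62, at 80.3 ± 4.60 CPM in the double mutant and 188 ± 3.56 CPM in wild type, was 2.34-fold lower, with -1.23 (SE 0.12, edgeR adjusted p 1.6e-07). mir-1018, at 4.83 ± 0.845 CPM in the double mutant and 8.65 ± 1.62 CPM in wild type, was 1.80-fold lower, with -0.85 (SE 0.20, edgeR adjusted p 0.0019). None of their libraries overlapped with wild type, where 30.9% of all tested miRNAs were called lower and 36% were lower without overlap. The median log2 change was -1.23 over the 3 mirtrons and -0.061 over the 139 miRNAs. mir-1020, mir-62 and mir-1018 held ranks 10, 12 and 24 among the falls. These 3 falls passed under all the alternatives run, upper quartile factors included, with log2 changes from -1.42 to -0.69, except that mir-1018 has no value under the stricter filter on low counts.

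The mirtrons were also lower in dpf-3;alg-1 when set against the dpf-3 single mutant, which carries the same dpf-3 allele. The log2 changes were -1.40 (SE 0.12) for mir-62, -1.30 (SE 0.13) for mir-1020 and -0.73 (SE 0.20) for mir-1018, with edgeR adjusted p-values of 2.9e-08, 2.7e-07 and 0.0046. Here too 3 of 3 were lower, where 29.5% of all miRNAs were. Both comparisons use the libraries of the double mutant, so they are not independent. Against wild type the embryo and oocyte list had 8 of 8 members lower, with summed levels of 44061 to 93568 CPM in the double mutant and 115777 to 141543 CPM in wild type. The neuron list had 4 of 5 higher, with summed levels of 1821 to 2329 CPM in the double mutant and 1199 to 1276 CPM in wild type. Against dpf-3 the embryo and oocyte list ran the opposite way, with 7 of 8 members higher and summed levels of 44061 to 93568 CPM in the double mutant and 15518 to 28682 CPM in dpf-3. The neuron list again had 4 of 5 higher there, and 1 of the 2 intestine markers was lower in each of these comparisons. The part of these tissues was not tested.

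In alg-2 mutants mir-1018 alone of the mirtrons passed the test against wild type, and only just. mir-62 had 152, 163 and 174 CPM in alg-2, against 192, 185 and 188 CPM in wild type. The libraries do not overlap, but the log2 change of -0.21 (95% interval -0.44 to 0.033) had an edgeR adjusted p of 0.14. mir-1020 had 73.6, 91.4 and 71.9 CPM in alg-2, against 83.7, 92.6 and 98.7 CPM in wild type, with a log2 change of -0.22 (95% interval -0.49 to 0.056) that also missed the threshold. Under 1 of the 19 alternatives run for it, mir-1020 was called lower. mir-1018 had 6.76, 5.39 and 6.27 CPM in alg-2, against 10.4, 8.33 and 7.21 CPM in wild type, without overlap. It was called lower by -0.48 (SE 0.19) with an edgeR adjusted p of 0.049. That call was lost without any one of 5 of the 6 libraries, the exception being wild type replicate 3, with edgeR adjusted p-values of 0.066 to 0.20, where all alternatives gave 0.034 to 0.20. Of the 3 mirtrons 1 was called lower, where 18.7% of all miRNAs were. With upper quartile factors, which move the median of all miRNAs from 0.06 to 0.87, mir-62, mir-1020 and mir-1018 turned to 0.61, 0.60 and 0.32. All 8 embryo and oocyte markers were lower, with summed levels of 3982 to 4976 CPM in alg-2 and 115777 to 141543 CPM in wild type. The muscle marker, the glia and epidermis marker and 1 of the 5 neuron markers were higher, and the part of these tissues in the mir-1018 change was not tested. This comparison is between library sets.

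Adding the dpf-3 mutation to alg-2, a comparison within one library set, raised a pair of the mirtrons. mir-62 had 312, 259.6 and 284 CPM in dpf-3;alg-2, against 152, 163 and 174 CPM in alg-2. It rose 1.75-fold, a log2 change of 0.81 (SE 0.11) with an adjusted p of 0.00024 by edgeR's test, and every double mutant library is above every alg-2 library. mir-1018 had 9.09, 9.50 and 13.8 CPM in dpf-3;alg-2, against 6.76, 5.39 and 6.27 CPM in alg-2. It rose by 0.81 (SE 0.19) with an edgeR adjusted p of 0.0050, again without overlap. Without replicate 3 of the double mutant the change was 0.58 with an edgeR adjusted p of 0.056, where all alternatives gave 0.0040 to 0.056. mir-1020 had 72.0, 55.5 and 72.8 CPM in dpf-3;alg-2, against 73.6, 91.4 and 71.9 CPM in alg-2. The libraries overlap, and the log2 change of -0.24 (95% interval -0.51 to 0.038) did not pass, with an edgeR adjusted p of 0.26.

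Of the 3 mirtrons 2 were called higher there, where 12.9% of the 139 miRNAs were. By size of rise mir-1018 ranked 10 and mir-62 ranked 11 of 139, and the median log2 change of all miRNAs was -0.0054. The mirtron calls were the same 2 by DESeq2 and by limma-voom. Of the 8 embryo and oocyte markers 0 passed the edgeR test, and 0 had an unadjusted p under 0.05 or were called by DESeq2 or limma-voom. The same held for the 2 intestine markers, the muscle marker and the glia and epidermis marker. Of the 5 neuron markers 1 was lower, and the summed neuron level was 759 to 1062 CPM in the double mutant and 1439 to 1739 CPM in alg-2. The part of neurons was not tested.

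Set against wild type, dpf-3;alg-2 was higher in mir-62 and lower in mir-1020. mir-62 was at 285 ± 26.4 CPM in the double mutant and 188 ± 3.56 CPM in wild type (SD, n = 3 each), a log2 change of 0.601 (SE 0.11, edgeR adjusted p 0.00041). mir-1020 was at 66.8 ± 9.76 CPM in the double mutant and 91.7 ± 7.58 CPM in wild type, a log2 change of -0.45 (SE 0.13, edgeR adjusted p 0.0088). With upper quartile factors, which move the median of all miRNAs from 0.10 to 0.96, mir-1020 turned to 0.40, mir-62 was at 1.46, and mir-1018 passed at 1.18. The mir-1020 call was lost without replicate 2 of the double mutant, at -0.34 with an edgeR adjusted p of 0.052, where all alternatives gave 0.0011 to 0.052. mir-1018 was at 10.8 ± 2.59 CPM in the double mutant and 8.65 ± 1.62 CPM in wild type, with overlapping libraries and a log2 change of 0.33 (95% interval -0.065 to 0.72) that did not pass. Of the 3 mirtrons 1 was higher and 1 lower, where 28.8% of all miRNAs were higher and 18.7% lower. All 8 embryo and oocyte markers were lower, with summed levels of 4427 to 4856 CPM in the double mutant and 115777 to 141543 CPM in wild type. The muscle marker and the glia and epidermis marker were higher and 1 of the 5 neuron markers was lower, and their part was not tested. This comparison, too, is between library sets.

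The dpf-3 mutation alone moved none of the mirtrons past the test. mir-62 had 241, 190.3 and 203 CPM in dpf-3, against 192, 185 and 188 CPM in wild type, a log2 change of 0.17 (95% interval -0.070 to 0.41). mir-1020 had 86.2, 88.3 and 90.6 CPM in dpf-3, against 83.7, 92.6 and 98.7 CPM in wild type, with -0.05 (95% interval -0.33 to 0.22). mir-1018 had 7.75, 8.83 and 7.28 CPM in dpf-3, against 10.4, 8.33 and 7.21 CPM in wild type, with -0.12 (95% interval -0.51 to 0.27). The libraries of dpf-3 and wild type overlap for each of them, and the intervals leave room for changes up to those bounds. In edgeR's test 0 of the 3 were called, also 0 at an unadjusted p under 0.05 and 0 by DESeq2 or limma-voom, where 33.8% of all miRNAs were called. With upper quartile factors, which move the median of all miRNAs from 0.02 to 0.33, mir-62 passed at 0.47, and mir-1020 and mir-1018 turned to 0.256 and 0.195 without passing. The embryo and oocyte list had 8 of 8 members lower, with summed levels of 15518 to 28682 CPM in dpf-3 and 115777 to 141543 CPM in wild type. The glia and epidermis marker was higher, and the part of these tissues was not tested.

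Whether the effect of dpf-3 differed between genetic backgrounds was tested directly, as an interaction. For mir-62 the effect of dpf-3 in alg-1 animals minus that in alg-2 animals was -1.60 (SE 0.16) on the log2 scale, for mir-1018 -1.35 (SE 0.28) and for mir-1020 1.79 (SE 0.19). Each passed edgeR's test, with adjusted p-values of 1.6e-07, 0.00040 and 2.9e-07. For this difference 66.2% of all miRNAs were called. It equals the alg-1 minus wild type difference less the alg-2 minus wild type difference, both given next, so the results are not independent. In alg-1 animals minus wild type background the difference was -0.96 (SE 0.16) for mir-62 and 1.604 (SE 0.19) for mir-1020, both past the edgeR test with adjusted p-values of 3.5e-05 and 9.3e-07, and -0.42 (95% interval -1.005 to 0.17) for mir-1018, which did not pass. There 69.1% of all miRNAs were called. The mir-1020 value of that difference was 0.18 with upper quartile factors and did not pass. In alg-2 animals minus wild type background it was 0.64 (SE 0.16) for mir-62 and 0.93 (SE 0.27) for mir-1018, with edgeR adjusted p-values of 0.0086 and 0.021, and -0.18 (95% interval -0.57 to 0.203) for mir-1020, which did not pass. For that difference 28.1% of all miRNAs were called, 23 higher and 16 lower, and without wild type replicate 1 these counts were 13 and 5. The calls of mir-62 and mir-1018 were lost with upper quartile factors, at 0.39 and 0.66, and that of mir-1018 was lost without wild type replicate 1, at 0.78, or without dpf-3;alg-2 replicate 3, at 0.704.

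**Figure D3:**
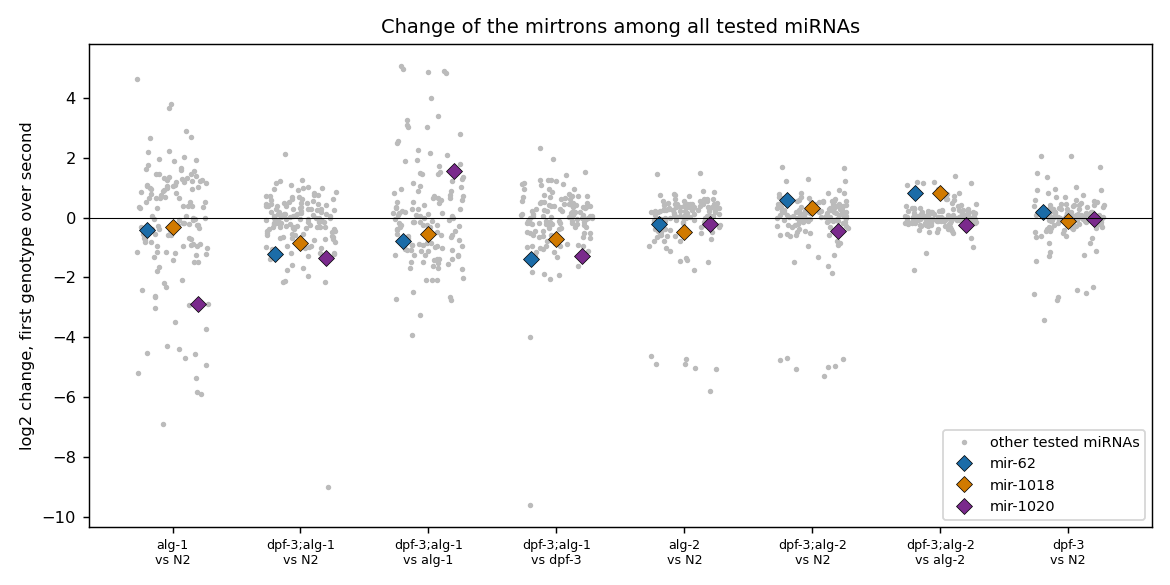
Log2 change (vertical axis, first genotype over second) of the 3 mirtrons, drawn as diamonds, and of the other tested miRNAs, drawn as grey points with sideways scatter, in the 8 comparisons. In dpf-3;alg-2 against alg-2 mir-62 and mir-1018 lie near the top of a narrow cloud, both at 0.81, and in alg-1 against wild type mir-1020 lies at -2.91.

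The mirtrons did not share one order of levels. mir-62 was highest in dpf-3;alg-2, followed downward by dpf-3, wild type, alg-2 and alg-1, and it was lowest in dpf-3;alg-1. The libraries of dpf-3 and wild type overlapped, as did those of alg-2 and alg-1, and the other neighbours in this order did not. mir-1020 was highest in wild type, followed by dpf-3, alg-2 and the double mutant with alg-2, each of which overlapped with the one before. The double mutant with alg-1 came next and alg-1 last, and both lay apart from what came before. mir-1018 was highest in dpf-3;alg-2, followed by wild type, dpf-3, alg-1 and alg-2, and lowest in dpf-3;alg-1, and each genotype overlapped with its neighbour.

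Ratios within a library do not depend on scaling between libraries, and they were looked at after the levels had been seen. mir-1020 had 0.0884, 0.0874 and 0.0859 counts for each mir-62 count in alg-1, against 0.436, 0.501 and 0.526 in wild type. The geometric mean was 5.57-fold lower in alg-1. The ratio in dpf-3;alg-1 was 0.462, 0.392 and 0.489, which overlaps with wild type, although both miRNAs were below their wild type levels there. In dpf-3;alg-2 it was 0.231, 0.214 and 0.256, against 0.484, 0.5597 and 0.413 in alg-2, a 2.07-fold lower geometric mean. Each of these separations, alg-1 from wild type, dpf-3;alg-1 from alg-1 and dpf-3;alg-2 from alg-2, had a two-sided exact permutation p of 0.1, the smallest that 3 libraries against 3 allow, and an adjusted p of 0.32 over 16 comparisons.

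The ratio of mir-1018 to mir-62 ranged less between genotypes than that of mir-1020, whose genotype means ran from 0.0872 to 0.488. mir-1018 had 0.0378 to 0.0606 counts for each mir-62 count as the mean of a genotype, and in 7 of the 8 comparisons the libraries overlapped. With only 50 to 191 mir-1018 counts in a library, overlap does not show that the ratio stayed the same. The exception to the overlap was dpf-3;alg-1 against dpf-3, where the geometric means were 0.0597 in dpf-3;alg-1 and 0.0377 in dpf-3, with an exact permutation p of 0.1 that is again the smallest possible.

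**Figure D4:**
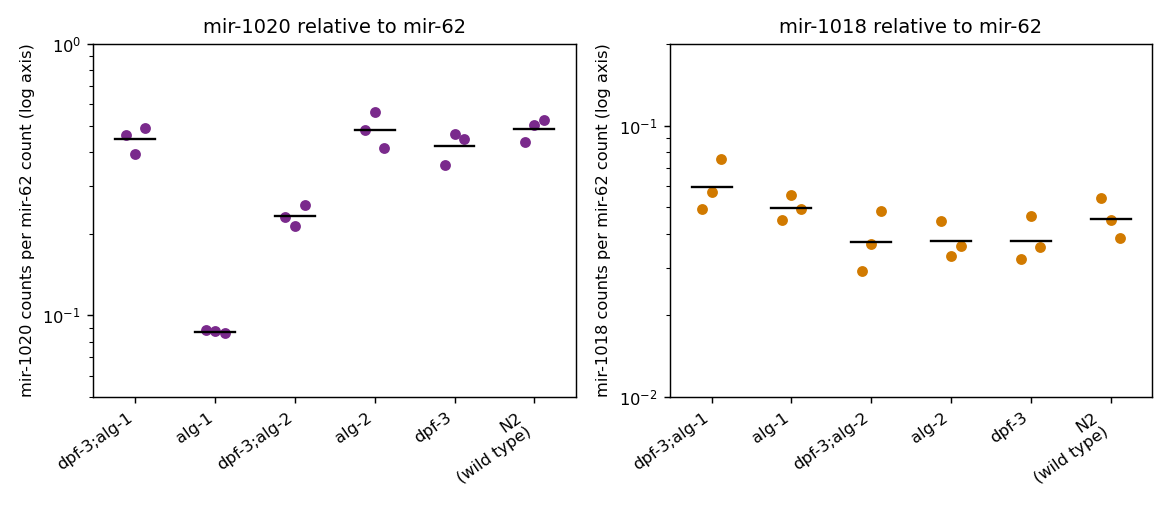
Counts of mir-1020 (left) and of mir-1018 (right) for each mir-62 count in the same library, on log axes, in the 6 genotypes. Points are libraries and bars geometric means of 3. The mir-1020 ratio is 0.0872 in alg-1 and 0.486 in wild type, while the mir-1018 ratio is 0.0498 in alg-1 and 0.0454 in wild type.

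The likeness of profiles was measured as the root mean square difference between the 6 genotype means of log2 CPM, each centred on its own mean. mir-62 and mir-1018 differed by 0.26, less than mir-62 differed from any of the 136 miRNAs outside the mirtrons, whose median difference was 0.78. The closest of those were mir-787 at 0.303, mir-255 at 0.32 and mir-46 at 0.35. mir-1018 came closest to mir-236 at 0.24, mir-47 at 0.29 and mir-2220 at 0.29. mir-1020 differed from mir-62 by 0.89 and from mir-1018 by 0.96. Its closest profiles were those of mir-785 at 0.22, mir-65 at 0.299 and mir-64 at 0.34, against a median of 1.16 over the 136. mir-785 was at 77.4 ± 4.99 CPM in alg-1 and 413 ± 12.3 CPM in wild type (SD, n = 3 each). All of these closest miRNAs but mir-47 were also called lower in dpf-3;alg-1 against wild type. Their log2 changes there ran from -1.06 for mir-785 to -0.52 for mir-46. Of them mir-255, at 0.61 (edgeR adjusted p 0.0046), and mir-2220 were called higher in dpf-3;alg-2 against alg-2. They were picked by likeness over these same genotypes.

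mir-2220 lies in the same host RNA as mir-1018, with 5573 bases between their hairpins, and it was counted 22 to 74 times in a library. It too is a whole intron, of 58 bases, and it moved with mir-62 and mir-1018 when dpf-3 was mutated in an Argonaute mutant. It had 4.13, 5.22 and 5.34 CPM in dpf-3;alg-2, against 1.92, 2.601 and 2.16 CPM in alg-2, a log2 change of 1.15 (SE 0.18, edgeR adjusted p 0.00039) and the rank 5 rise of 139. It had 2.16, 1.98 and 2.36 CPM in dpf-3;alg-1, against 4.33, 4.16 and 5.07 CPM in alg-1, a log2 change of -1.06 (SE 0.19, edgeR adjusted p 6.1e-05). That was the rank 33 fall, where 41.7% of all miRNAs were called lower. The difference between these effects was -2.21 (SE 0.27, edgeR adjusted p 8.8e-07). In alg-1 against wild type it had 4.52 ± 0.486 CPM and 3.65 ± 0.291 CPM, with a log2 change of 0.31 (95% interval -0.051 to 0.66) that did not pass. In alg-2 against wild type mir-2220 was already lower, at -0.73 (SE 0.18, edgeR adjusted p 0.0041). Its changes in dpf-3;alg-2 against wild type, 0.41 (edgeR adjusted p 0.053), and in dpf-3 against wild type, -0.42 (edgeR adjusted p 0.065), did not pass. Around mir-1018 the annotation holds 9 more miRNA hairpins within 10 kb that fill introns of Y59E1B.1. They were not analysed here.

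**Figure D5:**
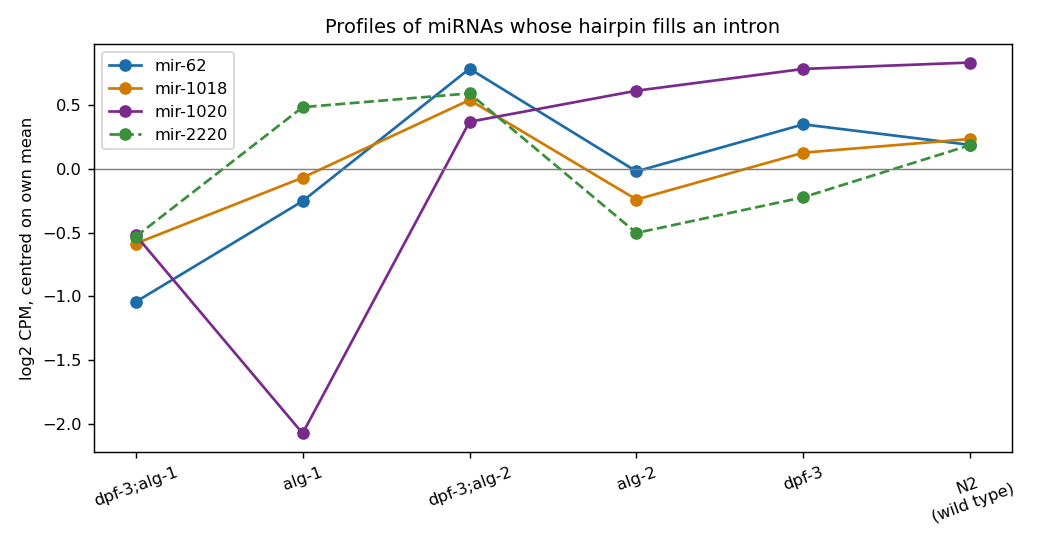
Profile of mir-62, mir-1018, mir-1020 and mir-2220 over the 6 genotypes, as the mean log2 CPM of 3 libraries minus the miRNA's own mean over genotypes (vertical axis). Lines only join the points of one miRNA. mir-62, mir-1018 and mir-2220 are all high in dpf-3;alg-2, at 0.78, 0.54 and 0.59, and low in dpf-3;alg-1, while mir-1020 is lowest in alg-1, at -2.07.

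Other miRNAs lie within a longer intron rather than filling one. This holds for 34 listed miRNAs in introns of protein-coding genes, and 25 of them were tested. In dpf-3;alg-1 against wild type 3 of the 25 were higher and 7 lower, with a median log2 change of -0.16, against -1.23 for the mirtrons. Among all 139 miRNAs 36 were higher and 43 lower there. In dpf-3;alg-2 against alg-2, 2 of the 25 were called, both higher, with a median of 0.035, where 12.9% of all miRNAs were higher. The mirtron median there was 0.81, with mir-62 and mir-1018 at 0.81 each, while mir-1020, at -0.24, was not called. In alg-1 against wild type 8 were higher and 12 lower, with a median of -0.32, against -0.43 for the mirtrons. There 59 of all 139 miRNAs were higher and 58 lower.

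Among these intronic miRNAs mir-90, which is known to share its seed with mir-62, had the largest rise in alg-1. It was at 29558 ± 1235 CPM in alg-1 and 10689 ± 1274 CPM in wild type (SD, n = 3 each), a log2 change of 1.47 (SE 0.11, edgeR adjusted p 7.1e-10). In dpf-3;alg-1 against wild type it was higher by 0.62 (SE 0.11), while mir-62 was lower by a log2 change of -1.23. In dpf-3;alg-1 against alg-1 it was lower, at -0.85 (SE 0.11), as was mir-62 at -0.80. In dpf-3;alg-2 against alg-2 its change of 0.21 (95% interval -0.011 to 0.44) did not pass.

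The miRNAs next to each mirtron in wild type abundance were looked at as well. These were mir-74 and mir-795 for mir-62, mir-797 and mir-789 for mir-1018, and mir-1829a and mir-239a for mir-1020. Their levels were matched in wild type only. In alg-1 mir-797 was at 114 CPM and mir-1018 at 6.96 CPM, and mir-239a was at 165 CPM and mir-1020 at 12.2 CPM. In dpf-3;alg-1 against wild type 2 of these 6 were higher and 1 lower, where all 3 mirtrons were lower. Of all tested miRNAs 30.9% were called lower there. In dpf-3;alg-2 against alg-2, 0 of the 6 were called by edgeR, DESeq2 or limma-voom, and 1 had an unadjusted p under 0.05. By edgeR 12.9% of all miRNAs were called higher in that comparison. In alg-1 against wild type 4 of them were higher and 1 lower, where 59 of all 139 miRNAs were higher and 58 lower.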

How the data were processed

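Expected counts per miRNA were deposited for 18 libraries. Per the labels' protocols they came from a NEBNext small RNA kit with a gel band near 140 bp, and Bowtie 0.12.7 is named in the submitters' processing notes. Build, annotation and counting rule were not given in the sources used here. Coordinates are left out for that reason, and no reference table of miRNA sequences was used. In each deposited file column 5 is the sum of columns 3 and 4, and the mirtrons had 0 counts in column 4. Column 5 was used, rounded to whole numbers. The identical mir-44 and mir-45 were summed, leaving 175 miRNAs.

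edgeR 4.0.16 (R 4.3.3) fitted all 18 libraries by genotype with TMM factors (0.876 to 1.10) and robust quasi-likelihood tests on 139 miRNAs. The filter asked for about 10 counts, scaled to library size, in as many libraries as the smallest group holds, and 15 in total. It removed 36. The common coefficient of biological variation was 14.0% and 12 residual degrees of freedom remained. Calls are at a Benjamini-Hochberg adjusted p below 0.05 over all 139. SEs come from the change and its F statistic. The fit was also run on counts simulated from its own estimates, with changes in a minority of miRNAs in alg-1. That run cannot show how the fit or the scaling holds where most miRNAs are called. Ratios were compared by exact permutation tests (SciPy 1.17.1). Members, lists and named miRNAs (likeness, abundance neighbours, intronic position, miRNAs within 10 kb) were chosen with earlier results of these data known. A planned list by shared seed was not made for lack of sequences. Introns are from Ensembl's WBcel235 annotation. Alternatives are in the closing section. DESeq2 1.42.0 and limma 3.58.1 were among them. No replicate pair agreed within sampling noise.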

Additional observations from a re-analysis of the deposited data

Results flagged for a closer look

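The effect of the dpf-3 mutation on the mirtrons differed between genetic backgrounds by a test of the difference itself, the interaction in edgeR's quasi-likelihood fit with Benjamini-Hochberg adjustment. Between the alg-1 and the wild type background the difference was -0.96 for mir-62 and 1.604 for mir-1020 on the log2 scale, while mir-1018, at -0.42, did not pass, and 69.1% of all miRNAs were called. Between the alg-2 and the wild type background it was 0.64 for mir-62 and 0.93 for mir-1018, while mir-1020, at -0.18, did not pass, and 28.1% of all miRNAs were called. Between the alg-1 and the alg-2 background it was -1.60 for mir-62, -1.35 for mir-1018 and 1.79 for mir-1020, and 66.2% of all miRNAs were called. The last of these differences equals the first minus the second, so they are not independent results. What sets mir-1020 apart from mir-62 and mir-1018 was not tested.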

How the results depend on the processing

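Over the 33 mirtron results, 17 kept their direction and side of the threshold under every alternative run, and 631 of 670 recomputed values did. The falls of all 3 mirtrons in dpf-3;alg-1 against wild type and against dpf-3, the changes of mir-1020 in alg-1 against wild type and in dpf-3;alg-1 against alg-1, and the rise of mir-62 in dpf-3;alg-2 against alg-2 were among the 17.

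With upper quartile factors mir-62 passed at 0.47 in dpf-3 against wild type, where mir-1018 turned to 0.195 and mir-1020 to 0.256. In alg-1 against wild type mir-62 turned to 0.73 and mir-1018 to 0.84. In alg-2 against wild type mir-62, mir-1018 and mir-1020 turned to 0.61, 0.32 and 0.60, and mir-2220 turned to 0.074. In dpf-3;alg-2 against wild type mir-1018 passed at 1.18 and mir-1020 turned to 0.40. For the dpf-3 effect in alg-1 minus wild type mir-1018 passed at -1.84 and mir-1020 was lost at 0.18, and in alg-2 minus wild type mir-62 and mir-1018 were lost at 0.39 and 0.66. Without composition factors mir-1020 turned to 0.046 in dpf-3 against wild type, and mir-1018 was lost at -0.36 in dpf-3;alg-1 against alg-1 and at -0.48 in alg-2 against wild type.

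In dpf-3;alg-1 against alg-1 mir-1018 was also lost at -0.38 with only the groups of the contrast and at -0.33 with the mir-35 family removed, and that removal made it pass at -0.44 in alg-1 against wild type. In alg-2 against wild type it was lost at -0.46 with limma-voom, at -0.48 with a replicate block over all libraries and at -0.49 with a replicate block within each library set. mir-62 passed there at -0.30 with the stricter filter of 10 CPM in 3 libraries, which left mir-1018 out.

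Leaving out each library in turn gave, in dpf-3 against wild type, -0.24 to 0.033 for mir-1018 and -0.11 to 0.0034 for mir-1020. It gave -0.66 to -0.41 for mir-1018 in dpf-3;alg-1 against alg-1, -0.598 to -0.33 for mir-1018 and -0.33 to -0.15 for mir-1020 in alg-2 against wild type, -0.52 to -0.34 for mir-1020 in dpf-3;alg-2 against wild type, and 0.58 to 0.93 for mir-1018 in dpf-3;alg-2 against alg-2. For the dpf-3 effect in alg-2 minus wild type mir-1018 ran from 0.704 to 1.05, lost without wild type replicate 1 or dpf-3;alg-2 replicate 3. The causes were not tested.

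Replicate numbers did not pair the libraries. Over 45 pairs of equal number across genotypes the correlation of deviations ran from -0.57 to 0.44, above 0.1 in 14. The replicate block changed the call of mir-1018 in alg-2 against wild type and no other mirtron call.

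Counts of all called miRNAs moved by over 1.5 times under some settings. In alg-1 against wild type upper quartile factors gave 94 higher and 25 lower, against 59 and 58 with TMM. They gave 57 and 11 in dpf-3 against wild type (22 and 25 with TMM), 22 and 101 in dpf-3;alg-1 against alg-1 (48 and 58), 104 and 7 in alg-2 against wild type (37 and 26) and 111 and 7 in dpf-3;alg-2 against wild type (40 and 26), and 19 higher in dpf-3;alg-1 against dpf-3 (40). In dpf-3;alg-2 against alg-2 RLE factors, DESeq2 or removal of the mir-35 family gave 14 lower, against 8, while upper quartile factors, the stricter filter, or leaving out alg-2 replicate 1, alg-2 replicate 3 or dpf-3;alg-2 replicate 2 gave 5. In alg-2 against wild type the higher count was 23 without alg-2 replicate 1 or 3, 20 with only the groups of the contrast and 19 with the stricter filter. The lower count in dpf-3;alg-2 against wild type was 17 without wild type replicate 3. For the dpf-3 effect in alg-2 minus wild type 13 were higher and 5 lower without wild type replicate 1, against 23 and 16, and the lower count was 6, 10 and 9 without alg-2 replicate 1, alg-2 replicate 3 and dpf-3;alg-2 replicate 2.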
